A study of Mus musculus with 6 samples.

Results

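Calreticulin, calmegin and the chaperones that work beside them in the endoplasmic reticulum (ER) of testis cells were read across 6 arrays, 3 of testis from DREAM transgenic mice and 3 of testis from wild-type mice. The 8 genes were chosen by name, and every probe set annotated to 1 of them alone was taken, which gave 19 of the 45037 probe sets tested and 8 of 18193 genes. The deposited table holds RMA log2 intensities of freshly dissected testis from adult mice of a hybrid background of C57BL/6 and CBA. The transgenic mice carry a DREAM mutant described as constitutively active. The promoter that drives it, the number of founder lines and the exact age are not given in the sources used here. DREAM is the product of Kcnip3, a calcium sensor that represses transcription at DNA sites with the core GTCA when it holds no calcium. The submitters describe the 3 samples of each group as independent biological replicates. RMA sets all arrays to a near-common distribution and gives no detection call, so every value below is relative and a low value does not show that a transcript is absent.

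Secreted and membrane proteins fold in the ER, where lectin chaperones hold glycoproteins that carry a trimmed sugar until they are folded. Calreticulin (Calr) is the soluble lectin and a major calcium-binding protein of the ER lumen, and calnexin (Canx) is its membrane-bound relative. Pdia3 (ERp57) is the disulfide isomerase that docks on both, P4hb is the classical protein disulfide isomerase, and Hsp90b1 (GRP94) is the HSP90 of the ER. Male germ cells add testis relatives: calmegin (Clgn), a calnexin relative, calsperin (Calr3), a calreticulin relative, and Pdilt, a disulfide isomerase relative that binds calmegin. In mice, loss of Clgn, Calr3 or Pdilt leaves sperm without mature ADAM3 and unable to pass into the oviduct.

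The start regions of the genes are shown because DREAM is a DNA-binding repressor and because several ER chaperone genes answer to ER stress through an ER stress element. RefSeq windows on GRCm38.p6, running from 250 bases before to 50 bases after a gene start, matched 7 of the 8 genes, all but Clgn, with 8 windows in all. The ER stress element was searched on both strands as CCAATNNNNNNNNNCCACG. It stood in 3 of the 8 windows, those of Calr, Canx and Hsp90b1, and in 0.119% of all 32851 windows. Hsp90b1 held 2 copies. The core GTCA, also searched on both strands, stood in 7 of the 8 windows, but 85.2% of all windows hold it. Hsp90b1 was the gene without it, and the window of Calr3 at its upstream start had 5 copies. In Canx the ER stress element shared 1 base with a GTCA match on the opposite strand. The windows below lie on the minus strand at chr8:84846882-84847181 (Calr), chr11:50325624-50325923 (Canx), chr10:86705395-86705694 (Hsp90b1) and chr8:72443729-72444028 (Calr3), and are written 5′ to 3′ along each gene. Capitals mark the ER stress element in either orientation in Calr, Canx and Hsp90b1, and GTCA in Calr3. These matches are letters in a window and do not show binding.
Calr: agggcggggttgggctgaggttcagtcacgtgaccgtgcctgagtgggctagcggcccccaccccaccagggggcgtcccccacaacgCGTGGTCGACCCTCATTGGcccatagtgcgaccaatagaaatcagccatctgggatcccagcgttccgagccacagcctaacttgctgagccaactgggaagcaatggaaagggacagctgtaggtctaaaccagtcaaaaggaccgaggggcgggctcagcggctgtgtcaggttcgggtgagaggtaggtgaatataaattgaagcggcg
Canx: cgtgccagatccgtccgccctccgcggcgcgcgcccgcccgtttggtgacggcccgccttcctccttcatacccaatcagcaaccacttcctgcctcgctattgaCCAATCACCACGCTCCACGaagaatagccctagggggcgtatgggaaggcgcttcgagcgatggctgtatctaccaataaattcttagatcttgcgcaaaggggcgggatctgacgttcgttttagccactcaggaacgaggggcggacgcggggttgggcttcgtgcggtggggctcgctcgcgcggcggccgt
Hsp90b1: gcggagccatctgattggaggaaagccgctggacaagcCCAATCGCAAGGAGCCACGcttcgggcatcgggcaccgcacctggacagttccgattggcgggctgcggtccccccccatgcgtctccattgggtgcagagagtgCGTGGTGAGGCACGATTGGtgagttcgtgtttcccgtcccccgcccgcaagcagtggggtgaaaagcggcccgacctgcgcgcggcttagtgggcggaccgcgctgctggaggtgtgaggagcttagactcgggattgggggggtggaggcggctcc
Calr3: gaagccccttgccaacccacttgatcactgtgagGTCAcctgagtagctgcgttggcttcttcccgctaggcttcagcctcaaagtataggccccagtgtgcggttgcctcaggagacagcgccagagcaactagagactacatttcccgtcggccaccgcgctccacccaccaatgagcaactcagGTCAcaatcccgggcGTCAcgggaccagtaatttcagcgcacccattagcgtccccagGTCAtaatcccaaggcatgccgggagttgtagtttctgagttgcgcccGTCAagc

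In the whole series 200 probe sets passed limma at an adjusted p under 0.05. Wild type replicate 2 stood apart on principal component 1 (38.9% of variance), at -42.2 against -5.3 to 23.3 for the other 5 arrays. The 3′ minus 5′ difference of the Gapdh control probe sets, a measure of RNA integrity, was 0.21, 0.26 and 0.33 in transgenic arrays and 0.16, 0.06 and 0.11 in wild-type arrays, with no overlap (log2). Kcnip3 did not check the labels, since whether its probe sets match the transgene is not known (differences of 0.06 and 0.14, limma adjusted p = 0.974 and 0.909). Markers of the labelled tissue stood above the array medians of 5.99 to 6.08 in every array: the mean level of the 5 elongating spermatid genes was 13.68 to 13.73, that of 7 Sertoli cell genes 8.11 to 8.29, and that of the 4 measured Leydig cell genes 9.52 to 10.04.

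No difference between DREAM transgenic and wild-type testis passed the test for any of the 8 chaperone genes. Of their 19 probe sets 0 passed limma at an adjusted p under 0.05, where 0.444% of all probe sets did. An unadjusted p under 0.05 was reached by 1 of the 19, where 6.69% of all probe sets reached it. Groups did not overlap in 2 of the 19 (10.5%), against 11.3% of all probe sets. The median difference was 0.02 on the log2 scale, the same as the 0.02 over all probe sets, with 12 above 0 and 7 below. Of the 19 probe sets 17 lay above the median level of all probe sets, and their differences ran from -0.19 to 0.17. Their 95% intervals reached at most from -0.40 to 0.48, which is 0.757-fold to 1.40-fold. A difference of 0.52 to 0.81 would have been needed for these 17 to pass, so smaller changes could not be called with 3 arrays in each group. With the Gapdh difference, which separates the groups, as a covariate, the 19 differences ran from -0.251 to 0.693 with a median of 0.177, 15 of them farther from 0 than without it, each moved by over 1.5 times or turned sign, and 0 passed (smallest limma adjusted p = 0.342).

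**Figure D1:**
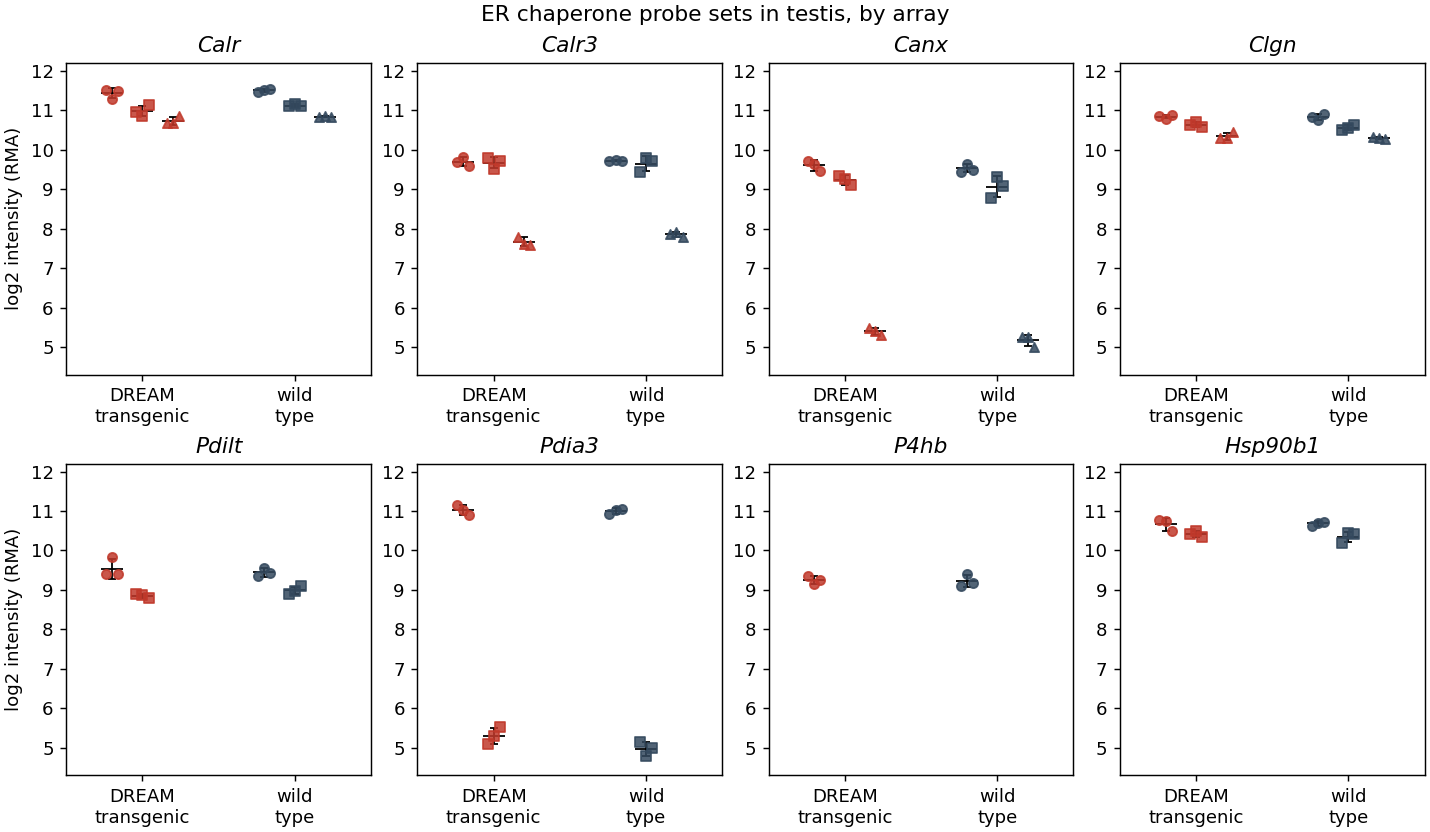
Log2 RMA intensity of each probe set of the 8 genes in each array, with DREAM transgenic arrays in red on the left and wild-type arrays in dark blue on the right of each panel. Circles, squares and triangles are the brightest, next and dimmest probe set of a gene, and black marks show the mean and SD of 3 arrays; the groups stand at nearly the same height in every panel, and 1 probe set each of Canx and Pdia3 lies near 5.

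Calmegin, the testis relative of calnexin, read nearly the same in both genotypes. Its brightest probe set (1418617_x_at) read 10.86, 10.79 and 10.88 in transgenic testis and 10.84, 10.76 and 10.92 in wild-type testis (log2). The wild-type values enclosed the transgenic ones, and the difference was 0.00 (SE 0.09, 95% interval -0.20 to 0.20, limma adjusted p = 0.995). On the linear scale this interval runs from 0.873-fold to 1.15-fold. The other probe sets of Clgn (1430240_a_at and 1457829_at) read 10.64 ± 0.07 and 10.35 ± 0.09 in transgenic testis, against 10.56 ± 0.06 and 10.30 ± 0.03 in wild-type testis (SD, n = 3). Their differences were 0.08 and 0.05 (limma adjusted p = 0.963 and 0.978), with overlapping groups in both.

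Calsperin, the germ cell relative of calreticulin, is read by 3 probe sets. The brightest (1453233_s_at) gave 9.70, 9.82 and 9.58 in transgenic testis and 9.71, 9.74 and 9.72 in wild-type testis. Transgenic replicate 2 stood above all wild-type arrays, while replicate 3 and, narrowly, replicate 1 stood below them. The difference was -0.02 (SE 0.09, 95% interval -0.23 to 0.19, limma adjusted p = 0.99). A probe set of nearly the same brightness (1453232_at) read 9.67 ± 0.14 in transgenic and 9.65 ± 0.19 in wild-type testis (SD, n = 3; limma adjusted p = 0.993). The dimmest Calr3 probe set (1431255_at) read 7.80, 7.62 and 7.59 in transgenic testis and 7.87, 7.91 and 7.79 in wild-type testis. Only transgenic replicate 1 overlapped the wild-type range there, by 0.01 on the log2 scale, and the difference of -0.19 had an unadjusted p of 0.0803 (SE 0.09, 95% interval -0.40 to 0.03, limma adjusted p = 0.803). The 3 probe sets of this gene did not move together from array to array, with Pearson r from -0.37 to 0.22 over 6 arrays that share 1 normalization. The same held for the probe sets of Clgn (r = -0.03, 0.17 and -0.32) and of Pdilt (r = -0.11).

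Pdilt had probe sets that pointed in opposite directions. The brighter (1454033_at) read 9.39, 9.83 and 9.39 in transgenic testis and 9.34, 9.55 and 9.43 in wild-type testis. Transgenic replicate 2 was the highest array and the other two transgenic arrays lay within the wild-type range, for a difference of 0.10 (SE 0.13, 95% interval -0.20 to 0.40, limma adjusted p = 0.969). Its other probe set (1431867_a_at) read 8.89, 8.86 and 8.80 in transgenic testis and 8.90, 8.97 and 9.09 in wild-type testis. Every transgenic array was below every wild-type array, though by as little as 0.01, and the difference was -0.14 (SE 0.09, 95% interval -0.34 to 0.07, limma adjusted p = 0.896). Without transgenic replicate 2 the brighter probe set gave -0.05, so its sign rests on that array.

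These 3 genes are made in meiotic and haploid germ cells, and in whole testis fewer such cells and less RNA per cell cannot be told apart. Mean levels of the germ cell markers were 9.47 to 9.56 in transgenic arrays and 9.73 to 9.77 in wild-type arrays for 6 of 6 spermatocyte genes, without overlap, and 0 of the 6 passed limma. An unadjusted p under 0.05 was reached by 3 of the 6, where 7.48% of all genes reached it by their brightest probe set. Round spermatid markers (5 of 5 measured) averaged 11.46 to 11.55 in transgenic arrays and 11.58 to 11.60 in wild-type arrays, also without overlap. Of these 5, 0 had an unadjusted p under 0.05. Differences above 0 were found for 0 of the 6 spermatocyte and 0 of the 5 round spermatid markers, against 57.7% of all genes. Elongating spermatid markers (5 of 5) averaged 13.69 to 13.73 in transgenic arrays and 13.68 to 13.71 in wild-type arrays. Mean marker levels of Leydig cells, endothelium and macrophages stood higher in transgenic arrays, which may bear on the widely expressed chaperones as well. Leydig cell markers (4 of 6 measured) averaged 9.88 to 10.04 in transgenic arrays and 9.52 to 9.75 in wild-type arrays. Of these 4, the steroid enzyme gene Hsd3b1 alone passed limma (difference 1.48, adjusted p = 0.00109). The higher Leydig mean rests on it, since Star, Cyp17a1 and Cyp11a1 differed by 0.01, 0.03 and -0.06, with overlapping groups. Endothelial markers (5 of 5) averaged 5.47 to 5.54 in transgenic arrays and 5.22 to 5.31 in wild-type arrays. Macrophage markers (5 of 5) averaged 6.35 to 6.38 in transgenic arrays and 6.03 to 6.33 in wild-type arrays. Both were without overlap and with 0 past limma, and 3 endothelial and 2 macrophage markers had an unadjusted p under 0.05. The endothelial means lay below the array medians of 5.99 to 6.08, so low signal limits them, and the macrophage ranges nearly met. Ranges of the spermatogonial, Sertoli, peritubular myoid and erythroid markers overlapped between the groups. The part of cell composition in the chaperone values was not tested.

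The widely expressed lectin chaperones did not pass either. Calr, read by its brightest probe set (1417606_a_at), gave 11.53, 11.30 and 11.49 in transgenic testis and 11.47, 11.53 and 11.54 in wild-type testis. Transgenic replicate 2 was lowest, and the difference was -0.07 (SE 0.09, 95% interval -0.29 to 0.14, limma adjusted p = 0.968). The probe set 1456170_x_at read 10.95, 10.87 and 11.13 in transgenic testis and 11.10, 11.16 and 11.10 in wild-type testis, a difference of -0.14 (SE 0.10, limma adjusted p = 0.909). The last (1433806_x_at) differed by -0.11 (SE 0.09, limma adjusted p = 0.933). In both, transgenic replicates 1 and 2 lay below all wild-type arrays while transgenic replicate 3 lay within their range. All 3 Calr probe sets were below 0, none past the test, and those with names ending in x_at tracked each other at a Pearson r of 0.98 over the 6 arrays. Probe sets with such names can match several transcripts, so they need not be separate readings. The brightest Clgn probe set, 1418617_x_at, has such a name too.

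Canx was above 0 with all 3 of its probe sets, none past the test. Its brightest (1415692_s_at) read 9.72, 9.63 and 9.46 in transgenic testis and 9.45, 9.64 and 9.50 in wild-type testis. The ranges overlapped over most of their length (difference 0.07, SE 0.10, 95% interval -0.16 to 0.30, limma adjusted p = 0.97). The next (1422845_at) read 9.33, 9.27 and 9.10 in transgenic testis and 8.79, 9.32 and 9.07 in wild-type testis. Wild type replicate 1 was the low array, and the difference of 0.17 had the widest interval of the 17 brighter probe sets (SE 0.14, -0.14 to 0.48, limma adjusted p = 0.929). It was 0.038 without wild type replicate 1 and 0.303 without wild type replicate 2. The dim one (1428935_at) read 5.47, 5.41 and 5.30 in transgenic testis and 5.25, 5.25 and 5.01 in wild-type testis. Here the groups did not overlap, by a gap of 0.05, and the difference was 0.22 (SE 0.10, 95% interval -0.01 to 0.45, limma adjusted p = 0.761). With the Gapdh difference as a covariate 1415692_s_at gave 0.397 and 1422845_at 0.693 (limma adjusted p = 0.439 and 0.342), larger values that did not pass either. Over 16 alternative fits the limma adjusted p ran from 0.206 to 0.998 for 1422845_at and from 0.356 to 0.998 for 1415692_s_at. The lowest value of each came from array weights that did not converge.

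**Figure D2:**
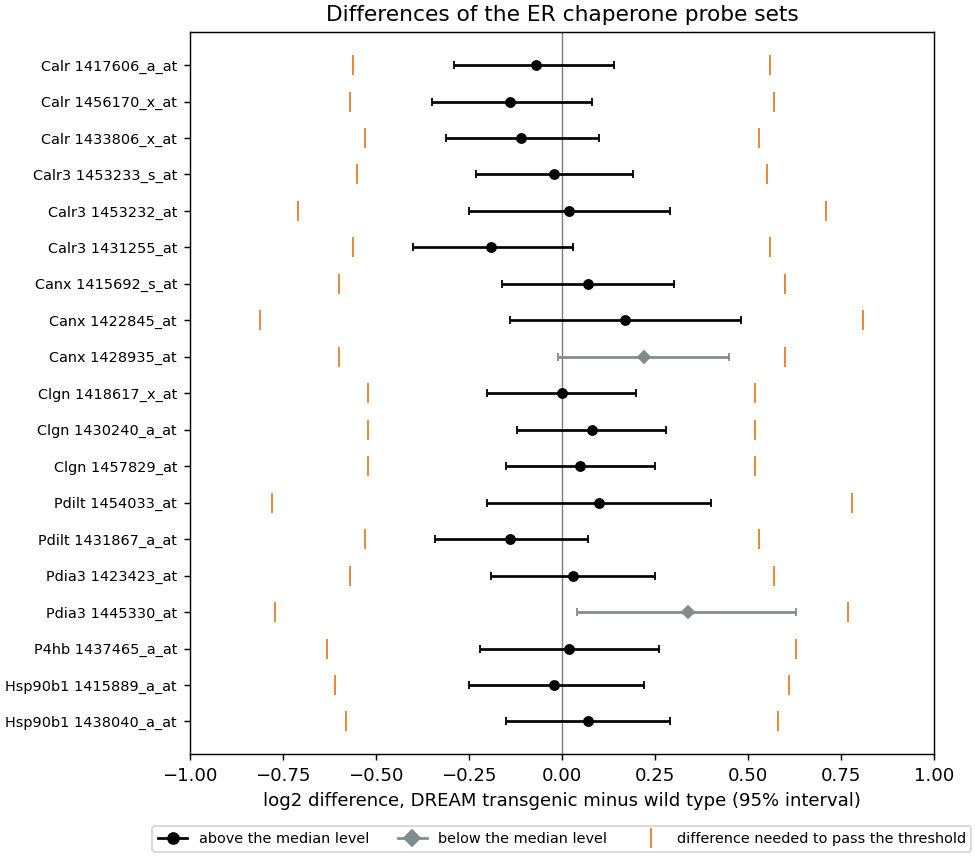
Log2 difference of DREAM transgenic minus wild-type testis for the 19 probe sets, with 95% intervals from limma; black circles are above and grey diamonds below the median level of all probe sets, and orange ticks mark the difference each would need to pass the threshold. Every point lies inside its ticks, and the interval of 1 dim Pdia3 probe set, 0.04 to 0.63, leaves out 0.

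Pdia3, the isomerase partner of both lectins, split by brightness. Its bright probe set (1423423_at) read 11.15, 11.03 and 10.90 in transgenic testis and 10.92, 11.02 and 11.05 in wild-type testis, with transgenic arrays at both ends (difference 0.03, SE 0.10, 95% interval -0.19 to 0.25, limma adjusted p = 0.987). The dim probe set (1445330_at) read 5.10, 5.30 and 5.51 in transgenic testis and 5.13, 4.79 and 4.98 in wild-type testis. It was the 1 probe set of the 19 with an unadjusted p under 0.05 (0.029). Transgenic replicate 1 lay within the wild-type range, and the difference of 0.34 did not pass (SE 0.13, 95% interval 0.04 to 0.63, limma adjusted p = 0.655). Only 31.7% of all probe sets were dimmer than this one, and with the Gapdh difference as a covariate it gave -0.195 (limma adjusted p = 0.682). Over 14 alternative fits its adjusted p ran from 0.0412 to 0.998, the lowest being 1 fit with array weights that did not converge.

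P4hb, which also serves as a subunit of prolyl 4-hydroxylase, has 1 probe set (1437465_a_at). It read 9.34, 9.15 and 9.25 in transgenic testis and 9.10, 9.40 and 9.18 in wild-type testis. All transgenic arrays fell inside the wild-type range (difference 0.02, SE 0.11, 95% interval -0.22 to 0.26, limma adjusted p = 0.993). Hsp90b1, whose clients include integrins and Toll-like receptors, read 10.78, 10.74 and 10.48 in transgenic testis and 10.62, 10.70 and 10.73 in wild-type testis with 1415889_a_at. Transgenic replicate 3 was the lowest array and the other two the highest, for a difference of -0.02 (SE 0.10, 95% interval -0.25 to 0.22, limma adjusted p = 0.993). With 1438040_a_at Hsp90b1 read 10.41 ± 0.07 in transgenic and 10.34 ± 0.13 in wild-type testis (SD, n = 3), a difference of 0.07 (limma adjusted p = 0.971). Calr, Canx and Hsp90b1, which carry the ER stress element printed above, thus read -0.07, 0.07 and -0.02 with their brightest probe sets.

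Whether a testis chaperone and its widely expressed relative changed unequally was asked with the log2 difference between their brightest probe sets within each array. The size of such a difference carries the probes' own brightness, so only its change between genotypes is read. Calr3 minus Calr was -1.83, -1.48 and -1.91 in transgenic testis and -1.76, -1.79 and -1.82 in wild-type testis, a change of 0.05. Clgn minus Canx was 1.14, 1.16 and 1.42 in transgenic testis and 1.39, 1.12 and 1.42 in wild-type testis, a change of -0.07. Pdilt minus P4hb was 0.05, 0.68 and 0.14 in transgenic testis and 0.24, 0.15 and 0.25 in wild-type testis, a change of 0.08. The exact two-sided permutation test gave p = 1 for each of the 3 contrasts (adjusted p = 1 over the 3), and with 3 arrays against 3 it cannot go below 0.1. Transgenic replicate 2 set both Calr3 minus Calr and Pdilt minus P4hb highest, and without it they changed by -0.08 and -0.12. In both contrasts transgenic replicates 1 and 3 lay below all wild-type arrays, so the test result there rests on replicate 2.

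**Figure D3:**
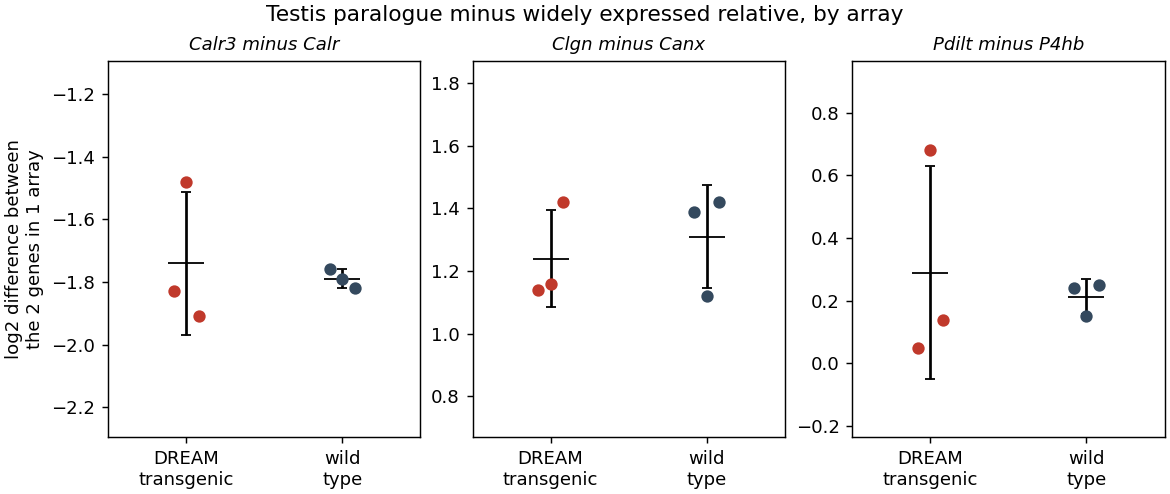
Log2 difference between 2 genes within each array (y axis, the same span of 1.2 in each panel but different positions), DREAM transgenic arrays in red at the left and wild-type arrays in dark blue at the right; bars are the mean and SD of 3 arrays. Transgenic replicate 2, the middle red point, stands highest for Calr3 minus Calr (-1.48) and for Pdilt minus P4hb (0.68).

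The rest of the ER folding machinery and the sperm proteins that depend on it were described from 7 lists of 93 genes, 92 of which had a probe set. With the brightest probe set of each gene, 0 of the 92 passed limma in either direction, where 0.616% of all genes did, and 6 had an unadjusted p under 0.05, where 7.48% of all genes did. Differences above 0 were found for 58 of the 92, against 57.7% of all genes, and the median was 0.028, against 0.02 over all genes. In the glycoprotein folding cycle 0 of 14 passed (median 0.072). Edem3, which trims mannose from misfolded glycoproteins, read 7.47 ± 0.02 in transgenic and 7.25 ± 0.20 in wild-type testis (SD, n = 3; limma adjusted p = 0.793), while its other probe set differed the opposite way, by -0.16 (limma adjusted p = 0.921). Uggt2, of the family that tags unfolded glycoproteins for another round with the lectins, read 7.93 ± 0.06 in transgenic and 8.09 ± 0.15 in wild-type testis (limma adjusted p = 0.878), and its other probe set differed by -0.25 (limma adjusted p = 0.915). Of 20 disulfide isomerases and oxidases 0 passed (median 0.057). Txndc5, an ER thioredoxin-domain isomerase, read 8.45 ± 0.15 in transgenic and 8.17 ± 0.14 in wild-type testis, a difference of 0.29 (limma adjusted p = 0.677), and 0.30 with its other probe set (limma adjusted p = 0.823). Tmx3, a membrane-bound isomerase, differed by 0.24 (limma adjusted p = 0.78), and by 0.17, 0.03 and -0.13 with its dimmer probe sets (limma adjusted p = 0.903, 0.993 and 0.955).

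The ER HSP70 and HSP90 system held the widest spread among the ER lists proper, with 0 of 15 past the test and a median of 0.017. Sdf2l1, a partner of the ER HSP70, read 8.98, 8.54 and 8.35 in transgenic testis and 7.75, 8.53 and 8.17 in wild-type testis. Wild type replicate 1 was the lowest and transgenic replicate 1 the highest array, and the difference of 0.47 did not pass (SE 0.21, limma adjusted p = 0.746). Hyou1 (GRP170), a nucleotide exchange factor of the same HSP70, read 8.57, 9.52 and 8.70 in transgenic testis and 9.56, 9.21 and 9.28 in wild-type testis. Transgenic replicate 2 lay with the wild-type arrays, and the difference was -0.42 (SE 0.22, limma adjusted p = 0.825). The other Hyou1 probe sets read -0.31 and -0.22 (unadjusted p = 0.00774 and 0.035, limma adjusted p = 0.377 and 0.692), so all 3 were below 0 and none passed. Of 8 calcium-binding proteins of the ER lumen and secretory pathway 0 passed (median 0.018). Rcn3 and Calu, both of the CREC family, differed by -0.21 and 0.12 (limma adjusted p = 0.899 and 0.922), and Calu by 0.16 with its other probe set (limma adjusted p = 0.837).

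Among 15 sensors and effectors of the unfolded protein response 0 passed (median -0.047). Ern2, an ER stress sensor best known from gut epithelium, differed by 0.36 at the low levels of 5.66 ± 0.09 in transgenic and 5.30 ± 0.29 in wild-type testis (SD, n = 3; limma adjusted p = 0.676). Trib3, a pseudokinase induced in ER stress, differed by -0.20 (limma adjusted p = 0.89), and by 0.02 with its other probe set (limma adjusted p = 0.989). Of 5 genes of MHC class I loading, which uses Calr and Pdia3, 0 passed (median 0.063). B2m, the light chain of class I molecules, differed by 0.29 and Tapbpl, a tapasin relative, by 0.13 (limma adjusted p = 0.847 and 0.904). Their other probe sets differed by 0.28 for B2m and, in the opposite direction, by -0.17 for Tapbpl (limma adjusted p = 0.829 and 0.948).

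A list of ADAM3, its relatives and other sperm surface or maturation genes, not all of which sperm migration needs, had 15 measured members of 16. Of these 0 passed the test, 3 had an unadjusted p under 0.05, where 7.48% of all genes did, and the median was -0.02. Tex101, among these 3, was also counted among the spermatocyte markers with an unadjusted p under 0.05. Adam3 itself read 12.16, 12.19 and 12.12 in transgenic testis and 12.10, 12.08 and 12.19 in wild-type testis, a difference of 0.03 (limma adjusted p = 0.985). Rnase10, an epididymal protein of the ribonuclease A family, had the smallest p. It read 4.20, 4.27 and 4.31 in transgenic testis and 4.80, 4.72 and 5.07 in wild-type testis. The groups did not overlap, and the difference of -0.60 missed the threshold (SE 0.11, 95% interval -0.85 to -0.36, limma adjusted p = 0.0647), at a level below the median of all probe sets. It passed without wild type replicate 2 (limma adjusted p = 0.0191) and after quantile normalization again (0.0334). In all it passed in 7 of 15 alternative fits (limma adjusted p from 0.000247 to 0.354). The lowest came from array weights that did not converge, and another of the 7 used gene-by-gene weights chosen after seeing the data. Izumo1, which sperm need to bind and fuse with the egg, read 10.52, 10.69 and 10.64 in transgenic testis and 10.98, 10.84 and 10.88 in wild-type testis. The groups did not overlap, and the difference of -0.28 did not pass (SE 0.09, 95% interval -0.49 to -0.08, limma adjusted p = 0.476).

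**Figure D4:**
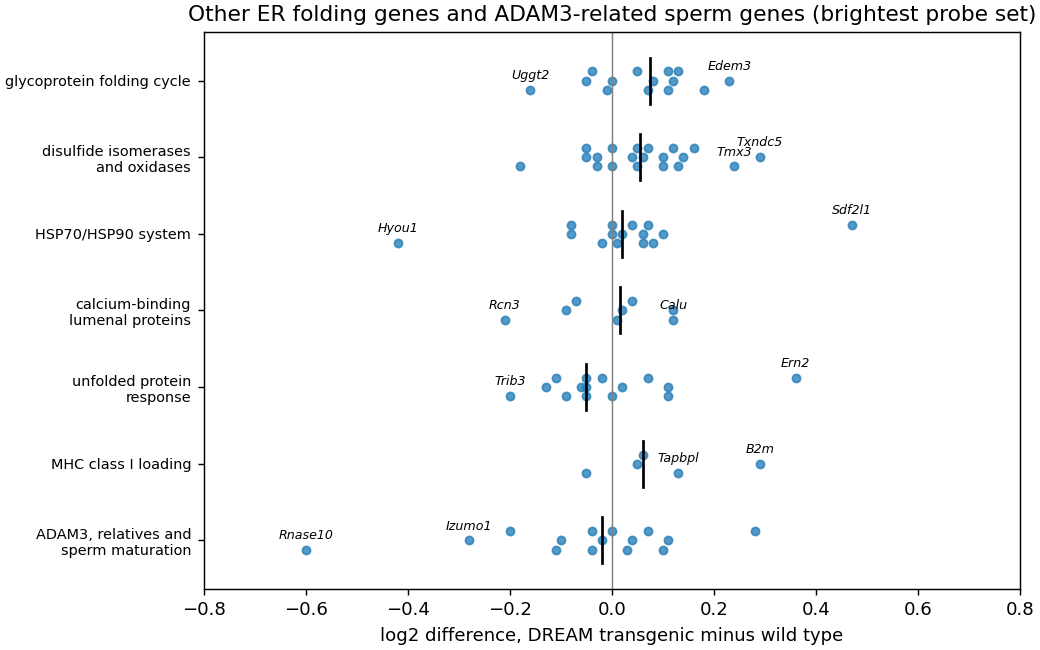
Log2 difference of DREAM transgenic minus wild-type testis for the 92 measured genes of 7 lists, each by its brightest probe set; dots are genes, black bars the median of a list, and the vertical scatter within a list has no meaning. Medians run from -0.047 to 0.072, and Rnase10 at -0.60 lies farthest from 0.

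Among 12689 genes above the median level, the 3 whose brightest probe set followed the mean centred profile of Calr3, Clgn and Pdilt most closely were Dnali1 (an axonemal dynein light intermediate chain), Spata19 (a mitochondrial protein of sperm) and Rps14 (a ribosomal protein), with Pearson r of 0.991, 0.984 and 0.983 over 6 arrays. That profile spanned -0.06 to 0.13 on the log2 scale and was highest in transgenic replicate 2, as were these 3 genes. It was not common to all its members. The brightest probe sets of Pdilt and Calr3 peaked in that array (9.83 and 9.82), while that of Clgn was at its lowest transgenic value there (10.79). With 6 arrays that share 1 normalization, r this high is a description only.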

How the data were processed

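Per the labels' protocols, total RNA was made with TRIzol and a column kit and biotin-labelled cRNA was prepared for Affymetrix arrays. The submitters' processing notes name RMA and affy; versions and a genome build are not given in the sources used here. Each deposited value is the log2 intensity of a probe set, to 2 decimals. Here 64 control probe sets were left out and 45037 tested with no filter on dim ones. The platform annotation gave 34945 of them 1 gene, 932 several and 9160 none, and symbols of 34741 were updated through an NCBI RefSeq table of GRCm38.p6. Transgenic minus wild type was fitted with limma 3.58.1 in R 4.3.3 (lmFit, eBayes, two-sided, Benjamini-Hochberg over all probe sets, threshold 0.05), and the fit was tested on simulated data. Kcnip3, all member probe sets, 2 genes of smallest p per list and 3 genes of like profile were named by rule. Adam3, Tex101 and the Leydig cell genes were named after their values were seen. Members and lists were chosen with earlier results of these data known. The number of arrays, 3 per group, limits the precision. Alternatives covered dim filters, normalization, variance moderation, array weights, a replicate block, a Gapdh covariate, probe set choice, the threshold and leaving out each array.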

Additional observations from a re-analysis of the deposited data

How the results depend on the processing

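Across 17 alternatives to the fit, including leaving out each array, 0 of the member probe sets passed in all but 1. The exception was array weights by limma's default method, which did not converge and gave wild type replicate 3 a weight of 19.1 against 0.237 to 0.812 for the others. There 4160 probe sets were called, 3 member probe sets (Canx 1428935_at, Pdilt 1431867_a_at and Pdia3 1445330_at) and 9 genes of the ER lists. Gene-by-gene weights, chosen after seeing the data, gave 1058, 0 and 1. Over all probe sets 317 passed at an adjusted p under 0.1, 306 with trend and robust moderation, 117 with a replicate block and 18 with the Gapdh covariate, and 70 to 429 with 1 array left out (429 when wild type replicate 2 was dropped, 70 when wild type replicate 3 was, and 71, 75 and 73 when transgenic replicates 1, 2 and 3 were). The replicate numbers did not pair the arrays (r of same-numbered deviations -0.32, -0.07 and -0.01), and 0 member probe sets passed with the block. In the ER lists 1 gene, Rnase10, passed at the looser threshold, after quantile normalization again, with median centring, with trend and robust moderation and with averaged probe sets, and 0 to 1 with 1 array left out. The cause was not tested.

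Of 297 values of member probe sets under these alternatives 261 kept their sign and side of the threshold, 33 turned sign without a call on either side, and 3 gained a call. With median centring Calr3 1453232_at and P4hb gave -0.003 and Clgn 1418617_x_at -0.020. With default weights Calr3 1453232_at gave -0.043, Clgn 1418617_x_at -0.073 and Pdia3 1423423_at -0.018, and with gene-by-gene weights -0.019, -0.056 and -0.013. With the Gapdh covariate Calr3 1453233_s_at gave 0.103, Clgn 1418617_x_at -0.070, Clgn 1457829_at -0.091, Pdia3 1445330_at -0.195 and Hsp90b1 1415889_a_at 0.274. Without a turn of sign, that covariate gave 0.397 for Canx 1415692_s_at, 0.286 for Pdia3 1423423_at, 0.268 for P4hb, 0.269 for Calr3 1453232_at, 0.293 for Hsp90b1 1438040_a_at, -0.251 for Calr 1456170_x_at and -0.007 for Calr3 1431255_at. Averaged per gene, Pdilt gave -0.020 and Hsp90b1 0.027. With 1 array left out the range was -0.085 to 0.1 for Calr3 1453232_at, -0.083 to 0.037 for Calr3 1453233_s_at, -0.037 to 0.043 for Clgn 1418617_x_at, -0.002 to 0.078 for Clgn 1457829_at, -0.050 to 0.170 for Pdilt 1454033_at, -0.032 to 0.093 for Pdia3 1423423_at, -0.043 to 0.107 for P4hb, -0.073 to 0.077 for Hsp90b1 1415889_a_at and -0.007 to 0.113 for Hsp90b1 1438040_a_at. Pdilt minus P4hb changed by -0.04 with averaged probe sets. With 1 array left out it ran from -0.12 to 0.20, Calr3 minus Calr from -0.08 to 0.13 and Clgn minus Canx from -0.17 to -0.02. Dropping the lowest 40% or 60% of probe sets left 17 of the 19. Leaving out probe sets that can match several transcripts left 8 of the 19, with none for Calr, P4hb or Hsp90b1. Low signal limits the dim Canx and Pdia3 probe sets.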
